A study of Canis lupus familiaris with 55 samples.

Results

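Unannotated multi-exon intergenic transcripts of the embryonic dog gonad were the subject of these measurements. They are the loci of a reference-guided transcript assembly at which every assembled transcript was classed as intergenic (class code u) and at least 1 transcript had 2 or more exons. The rule used the transcript models and no expression value. It gave 2502 of the 58781 loci in the assembly. The other loci were 23570 with an annotated gene, 31606 intergenic loci with 1 exon, and 1103 of other unannotated kinds.

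A reference-guided assembler joins spliced reads into transcript models and keeps those that match no known gene. Class code u marks a model that shares no exon with a known gene, and its span can still overlap that of an annotated locus. Such models can be long noncoding RNAs, protein-coding genes that the annotation lacks, unlinked first or last exons of a neighbouring gene, or processed copies of genes. A splice junction makes a model less likely to be a stretch of genomic DNA or unspliced precursor RNA. Long noncoding RNAs are known for tissue-restricted and often low expression, and many start next to a protein-coding gene and run away from it.

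The gonad of a mammalian embryo starts out bipotential. In XY embryos Sertoli cells form under SOX9, and Leydig cells make steroids. In XX embryos WNT4, RSPO1 and FOXL2 mark the developing ovary. In the canine XX disorder of sex development (XX DSD) an XX gonad without SRY forms testicular tissue, as testes or ovotestes.

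RNA sequencing of gonads gave 55 libraries. XX DSD gonads came from a mixed American cocker spaniel and beagle pedigree in which each XX embryo carried 1 or 2 copies of a guanine insertion on chromosome 9 (CFA9) used as a risk marker, so affected status was inferred and not seen in the tissue. They numbered 9 at d35, 8 at d37-39 and 6 at d41-44, with both copies in 4, 6 and 6 of them. XY littermates of that pedigree, which carried the insertion too, numbered 4, 5 and 3, with both copies in 3, 5 and 1 of them. Wild-type beagle controls without the insertion were 6 XX and 6 XY embryos at d37-39 and 3 XX and 3 XY at d41-44, plus 1 pooled library of 6 XX and 1 of 7 XY embryos at d34, which entered no test. Control embryos came from 2 litters at d37-39 and 1 litter at d41-44, and XX DSD embryos from 4 litters at each age. By the labels, control embryos of the d41-44 groups were all of d44. XX DSD embryos of these groups were of d41 to d44, and XY littermates of d41 and d42. Breed, insertion, litter and sequencing pool, and at d41-44 also age, therefore cannot be told apart between the pedigrees. The sexes were compared within each pedigree.

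From d35 on, defining markers fitted the labelled tissue and sex. The summed level of 6 measured Sertoli genes was 180.2 to 381 FPKM in the XY libraries and 16.7 to 52.9 FPKM in the XX libraries, and 8 pre-granulosa genes had medians of 9.96 to 18.6 FPKM in XY and 87.3 to 224.7 FPKM in XX. In the d34 pools the Sertoli sum was 317.2 FPKM in XY and 58.9 in XX, but the pre-granulosa sum was 86.5 FPKM in XY and close to it in XX, at 93.0. The pools also held more marker RNA of other tissues. Summed nerve genes were at 58.6 FPKM in the XX pool and 51.4 in the XY pool, against group medians of 2.18 to 9.27 from d35 on. Summed erythroid genes were at 386.6 and 800.5 FPKM, against medians of 26.3 to 200.2. FPKM is the fragment count divided by transcript length and by a measure of library size, and the deposited values were normalized between libraries. The files hold no counts. Relative depth, read from the smallest steps between low values, ran from 0.139 to 1.0 of the deepest library. The share of summed FPKM on annotated genes was 85.7% to 93.2% in all d41-44 and d34 libraries and in every d37-39 control but A1099. It was 17.1% to 76.4% in the d35 libraries, all of the DSD pedigree, and 28.9% to 91.7% in the DSD pedigree at d37-39. XY control A1099 had 34% and 1111 members at 1 FPKM or more, and XX DSD C3575 at d35 had the 17.1%. XY littermates C3627, C3637 and C3638 at d37-39 had median correlations of 0.372 to 0.449 with their group over the members, which were 0.779 to 0.806 over members of 200 nt or more. Counts of calls for sex in the DSD pedigree and for XY littermates against XY controls are given with and without them. Differences of single members include these libraries unless stated.

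The members were short models with few exons. Of the 2502, 1588 (63.5%) had 2 exons at most, 489 had 3, 205 had 4 and 220 had 5 or more, with 29 as the highest number. Among annotated loci with several exons, 10.1% had 2 exons. A single transcript was assembled at 1378 members (55.1%, against 20.5% of annotated multi-exon loci). The median of the longest spliced length was 1091.5 nt against 3733 nt, and the median genomic span was 5461 bp against 25577.5 bp. Exon number and spliced length of a member are each the highest over its transcripts, and need not belong to the same transcript.

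Levels were low, with exceptions. The median over members of the mean FPKM was 0.702, against 6.25 for annotated multi-exon loci. At least 1 group mean reached 1 FPKM at 1693 members (67.7%) and 4 FPKM at 814 (32.5%, against 63.2%). At 251 members every library held 1 FPKM or more, and at 286 no library did. The plot of exon number and level shows both distributions.

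**Figure D1:**
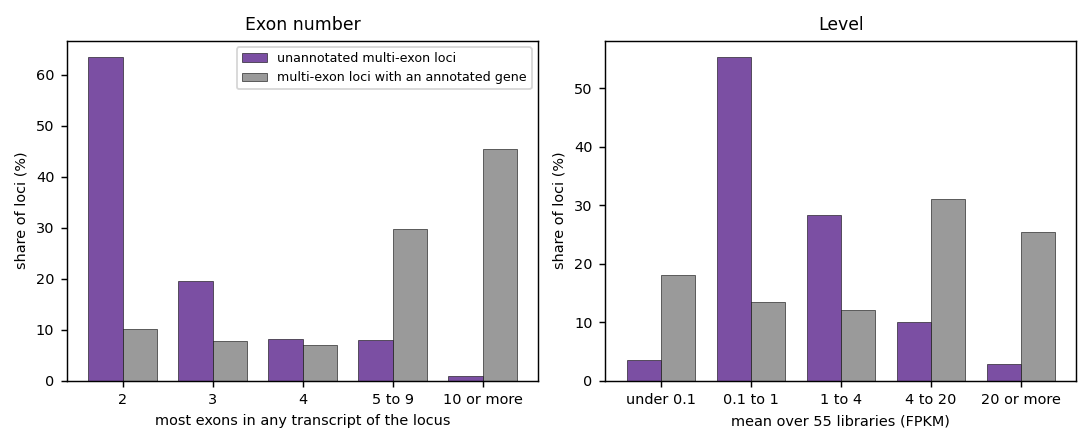
Share of loci (y axis, %) by exon number (left) and by mean FPKM over all libraries (right), for the 2502 unannotated multi-exon loci and for annotated loci with several exons. The unannotated loci pile up at 2 exons (63.5% against 10.1%) and at lower levels (median 0.702 against 6.25 FPKM).

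Models under 200 nt behaved differently from longer ones. The 386 such members were above 0 in a median of 2 libraries, with a median of 38.1 FPKM where they were above 0. The 2116 longer members were above 0 in a median of 54 libraries, with a median of 0.550 FPKM. The short ones made up 330 of the 814 members that reached 4 FPKM in a group. FPKM divides by length, so few fragments give a high value at a short model. C3627, C3637 and C3638 held 87, 63 and 85 short members at 4 FPKM or more, where other libraries held 3 to 39.

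Many members lay next to an annotated gene and ran away from it. The median distance to the nearest annotated locus was 6636.5 bp. Within 5 kb of a locus and outside its span lay 736 members, and 377 of these (51.2%) were upstream of the gene on the opposite strand, the arrangement of a divergent transcript. Another 132 were upstream and 131 downstream on the same strand, the positions that an unlinked first or last exon would take, and 96 were downstream on the opposite strand. A further 441 members overlapped the span of an annotated locus without sharing its exons, 386 of them on the opposite strand. At the far end, 291 members lay over 100 kb from any annotated locus. Strands come from splice sites, since the library kit does not keep strand, so reads of overlapping transcripts on opposite strands cannot be told apart.

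Members followed their neighbours weakly. Over the 53 single embryos, the median correlation of a member with its nearest gene on the log scale, after removing group means, was 0.0556 for 242 divergent pairs within 5 kb. It was 0.213 for 62 pairs in which the member lay downstream on the same strand and 0.0585 for 124 pairs over 100 kb apart. These are descriptions. The points share libraries, and low values carry counting noise.

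The first question was which of these transcripts differ between ovary and testis of wild-type embryos. A member was tested where a group mean reached 1 FPKM, on log2(FPKM + 1) with limma. It was called where the Benjamini-Hochberg adjusted p over all loci was under 0.05, the group means differed at least 2-fold and a mean reached 4 FPKM. At d37-39, 1011 members were tested, and 32 were higher and 27 lower in XX than in XY controls. These were 3.17% and 2.67% of the members tested, beside 2.41% higher and 3.46% lower among all loci tested. At d41-44, 934 members were tested, with 41 higher (4.39%) and 27 lower (2.89%), beside 3.63% and 4.22% of all loci. In bulk tissue, fewer cells of a type and less RNA per cell cannot be told apart.

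The 59 members called in controls at d37-39 were then read in other embryos. Of the 32 that were higher in XX controls at d37-39, 26 (81.3%) were called higher in XX controls at d41-44, and 16 of the 27 lower ones (59.3%) were called lower there. In the DSD pedigree, 20 of the 32 (62.5%) and 13 of the 27 (48.1%) were called in the same direction at d37-39. At d35 these were 18 (56.3%) and 9 (33.3%), and at d41-44 22 (68.8%) and 16 (59.3%). At d37-39 they made up 80.0% of the 25 members called higher there and 68.4% of the 19 called lower. None of the 59 was called in the opposite direction in any of these comparisons. The same shares were not taken over all loci or annotated genes, so whether such recurrence is particular to the members was not tested.

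XX DSD gonads also held members higher and lower than their XY littermates at every age. At d35, 805 members were tested, 31 were higher (3.85%) and 12 lower (1.49%) in XX DSD, beside 2.31% and 2.98% of all loci. At d37-39, 1285 were tested, with 25 higher (1.95%) and 19 lower (1.48%), beside 1.14% and 1.57%. At d41-44, 896 were tested, with 34 higher (3.79%) and 27 lower (3.01%), beside 2.32% and 4.1%. Without C3627, C3637 and C3638 the d37-39 counts were 18 and 20, and without C3575 the d35 total was 46. Over the 5 comparisons of sex, 119 members were called in at least 1 and none in both directions. All 5 called 14 members higher in XX and 5 lower. These counts, too, were made over members alone.

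**Figure D2:**
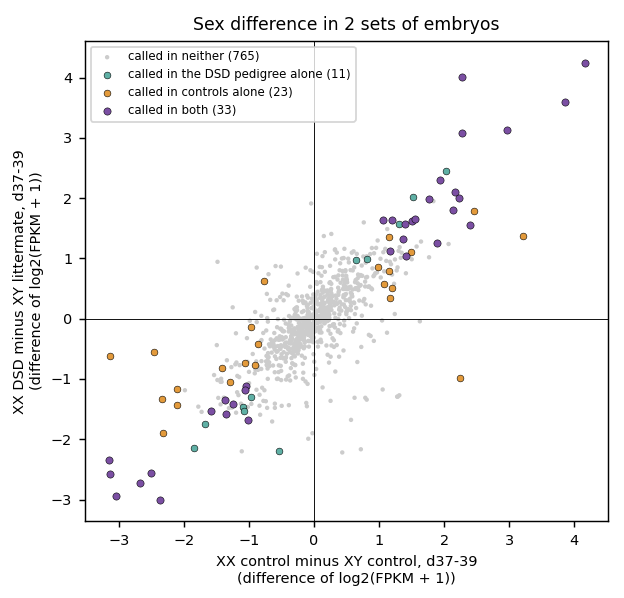
Difference of log2(FPKM + 1) between XX and XY at d37-39 for each of the 832 members tested in both pedigrees, controls on the x axis and XX DSD minus XY littermate on the y axis, coloured by where the member was called. The 33 members called in both lie in the lower left and upper right. Another 23 were called in controls alone and 11 in the DSD pedigree alone.

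Among members higher in XX, XLOC_017801 had the largest difference at d37-39 in controls. It lies at chr19:39147483-39162046 (canFam3, minus strand), has 3 exons and a longest spliced length of 1734 nt, and is 269429 bp upstream of CXCR4, a chemokine receptor gene used by migrating germ cells. XX controls at d37-39 ranged from 17.8 to 29.2 FPKM with a median of 23.2, and XY controls from 0.0681 to 1.21 FPKM with a median of 0.266. No XY embryo of any group came near the XX range from d37 on, and the XX DSD embryos lay among the XX controls. Levels in XX DSD had a median of 32.2 FPKM at d35 (11.8 to 43.5), 21.1 at d37-39 (14.6 to 30.5) and 20.1 at d41-44 (12.8 to 27.1). XY littermates at d35 held 5.90, 1.12, 0.486 and 0.561 FPKM, the highest in C3574, and at d37-39 held 0.189, 0.631, 0, 0 and 0. The difference was 4.16 on the log2 scale in controls (SE 0.18, adjusted p = 6e-09) and 4.25 in the DSD pedigree at d37-39 (SE 0.18, adjusted p = 4.1e-09). The XX d34 pool held 64.2 FPKM and the XY d34 pool 22.6 FPKM, so the member was present in the XY pool, which is 1 library.

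XLOC_026338 overlaps the span of CDH4, a cadherin gene, on its strand at chr24:45556375-45782366 (plus strand, 3 exons, 380 nt). XX controls at d37-39 ranged from 18 to 53.4 FPKM with a median of 41.1, and XY controls from 0 to 6.26 with a median of 1.57. The groups did not overlap, and the difference was 3.86 on the log2 scale (SE 0.41, adjusted p = 1.6e-05). In XX DSD at d41-44 it ranged from 16.6 to 41.6 FPKM, while all 3 XY littermates were listed at 0. XX DSD embryos C3575 at d35 (0.417 FPKM) and C3636 at d37-39 (1.34 FPKM) fell within the range of their XY littermates. The XY d34 pool held 20.8 FPKM, close to the 23.4 FPKM of the XX pool.

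XLOC_009124 starts 3034 bp upstream of GABRA2, a GABA receptor subunit gene, and runs away from it at chr13:42491146-42526045 (plus strand, 2 exons). In XX controls at d37-39 it was at 2.56 to 8.30 FPKM with a median of 4.98, and XY controls were listed at 0 in 4 of 6 and reached 0.361 FPKM. The difference was 2.45 on the log2 scale (SE 0.21, adjusted p = 2.2e-06). XX DSD embryos spread more widely, from 0.0970 to 7.03 FPKM at d37-39. At d41-44 they were lower than XX controls by -1.28 on the log2 scale (SE 0.45, adjusted p = 0.04), with overlapping groups.

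XLOC_000057 had higher levels at later ages in XX. It has 5 exons at chr1:15657166-15665346 (plus strand). Mean levels in XX DSD were 0.876 FPKM at d35, 3.17 at d37-39 and 9.95 at d41-44, and in XX controls 3.41 and 13.5 FPKM at d37-39 and d41-44. Differences between ages were not tested. XY means stayed at or below 0.0415 FPKM from d35 on. At d41-44 the sex difference was 3.83 on the log2 scale in controls (SE 0.17, adjusted p = 6.3e-05) and 3.27 in the DSD pedigree (SE 0.41, adjusted p = 0.00041), without overlap in either.

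XLOC_038124, at chr33:13980708-13982630 (minus strand, 4 exons, 635 nt), was higher in XX in all 5 comparisons of sex. XX DSD embryos ranged from 13 to 29.6 FPKM at d37-39 and XY littermates from 0 to 0.588 FPKM, a difference of 4 on the log2 scale (SE 0.20, adjusted p = 1.7e-08). XX controls at that age held less than XX DSD, 2.96 to 10.1 FPKM with a median of 4.91, and the groups did not overlap (difference 1.53 on the log2 scale, SE 0.24, adjusted p = 0.00099). At d41-44 XX controls held 30.7, 17.5 and 16.8 FPKM, and XX DSD 14.3 to 24.0 FPKM, so the groups overlapped. XY littermate C3574 at d35 held 14.7 FPKM against 0.837 to 1.49 FPKM in the other 3.

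The other 11 members higher in XX in all 5 comparisons had these neighbours. XLOC_008042 starts 593 bp upstream of C6orf203 and XLOC_010527 lies 7973 bp upstream of IMPDH1, a purine synthesis gene, both on the opposite strand. XLOC_005572 lies upstream of SNAPC3, and XLOC_026060 overlaps the span of BTBD3 on the opposite strand. XLOC_029106 is a locus of 34 transcripts at chr26:3966581-4182364. Its XX controls at d37-39 held 12 to 26.5 FPKM and its XY controls 0.386 to 2.53 FPKM (difference 2.96 on the log2 scale, SE 0.23, adjusted p = 1.1e-06). XLOC_057161 starts 251 bp from LDOC1 and XLOC_057046 lies near PLS3, an actin-bundling gene, both on the X. XLOC_029014 lies near PRODH, XLOC_035446 starts 2158 bp from C15orf59, XLOC_042825 lies near MCC and XLOC_047303 lies 271638 bp from NEGR1.

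Members on the X numbered 104. In controls, 3 were called higher and 4 lower in XX of 51 tested at d37-39, and 5 higher and 1 lower of 47 at d41-44. In the DSD pedigree, 2 were higher and 1 lower of 50 at d35, 3 and 1 of 66 at d37-39, and 4 and 1 of 50 at d41-44. Over all loci tested, 2.41% were called higher and 3.46% lower in XX controls at d37-39, and 3.63% and 4.22% at d41-44, and the counts on the X are too few to read against them. The median difference of X members in controls at d37-39 was 0.00 on the log2 scale, beside -0.05 for members on the autosomes.

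Among members lower in XX, XLOC_053455 was listed at 0 in all 6 XX controls at d37-39. It spans chr9:17557327-17948627 (plus strand, 6 exons, 668 nt). The stretch that the study gives as the canine ortholog of RevSex, a SOX9 regulatory region linked to human XX DSD, lies within this span. Any relation between that stretch and the member was not tested. XY controls ranged from 1.60 to 9.08 FPKM with a median of 4.71. XY littermates at d35 held 20.8, 15.7, 13 and 18.3 FPKM and at d37-39 held 10.3, 24.7, 17.6, 8.09 and 1.41 FPKM. XX DSD embryos at d35 ranged from 0 to 1.73 FPKM with a median of 0.376, below every XY littermate. The difference was -2.37 on the log2 scale in controls at d37-39 (SE 0.32, adjusted p = 0.00011) and -3.64 in the DSD pedigree at d35 (SE 0.23, adjusted p = 3.1e-07).

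XLOC_036371 lies in a gene-poor stretch of chromosome 31, 204832 bp from the nearest annotated locus, at chr31:10205084-10213920 (plus strand, 2 exons, 4383 nt). XY controls at d37-39 ranged from 4.25 to 9.37 FPKM with a median of 5.47, and XX controls from 0.0114 to 0.0979 FPKM. XX DSD embryos at that age held 0.0756 to 1.13 FPKM, and XY littermates 13.3, 8.09, 7.79, 7.97 and 5.80 FPKM. Every XY embryo was above every XX embryo at d37-39. Differences were -2.68 (SE 0.16, adjusted p = 7.7e-08) in controls and -2.73 (SE 0.24, adjusted p = 4.2e-06) in the DSD pedigree on the log2 scale.

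XLOC_036558 lies 260 bp upstream of ADAMTS5 on the same strand, at chr31:22289772-22290942 (2 exons, 850 nt). ADAMTS5 encodes a protease of the extracellular matrix. XY controls at d37-39 ranged from 6.62 to 12.2 FPKM and XX controls from 0.406 to 1.55 FPKM. XY littermates held 18.2, 14.6, 5.01, 5.08 and 10.3 FPKM, and XX DSD 0.168 to 1.63 FPKM. The groups did not overlap in either pedigree, with differences of -2.50 (SE 0.18, adjusted p = 3.7e-07) and -2.56 (SE 0.33, adjusted p = 0.00014) on the log2 scale.

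XLOC_019102, downstream of BEND7 at chr2:23069401-23114041 (minus strand, 3 exons), was at 12.4 to 34.2 FPKM in XY controls at d37-39 and at 0.344 to 5.49 FPKM in XX controls. It was listed at 0 in the XY d34 pool. The difference was -3.13 on the log2 scale (SE 0.35, adjusted p = 2.2e-05). XLOC_038877, with 6 exons at chr34:2298180-2310617, showed the same order of groups, with 10.9 to 36.2 FPKM in XY controls and 0.223 to 2.82 FPKM in XX controls (difference -3.16, SE 0.34, adjusted p = 1.5e-05), and 0.0417 FPKM in the XY d34 pool. In both, XY littermate C3574 was the lowest of its d35 group, at 1.44 and 0.253 FPKM.

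**Figure D3:**
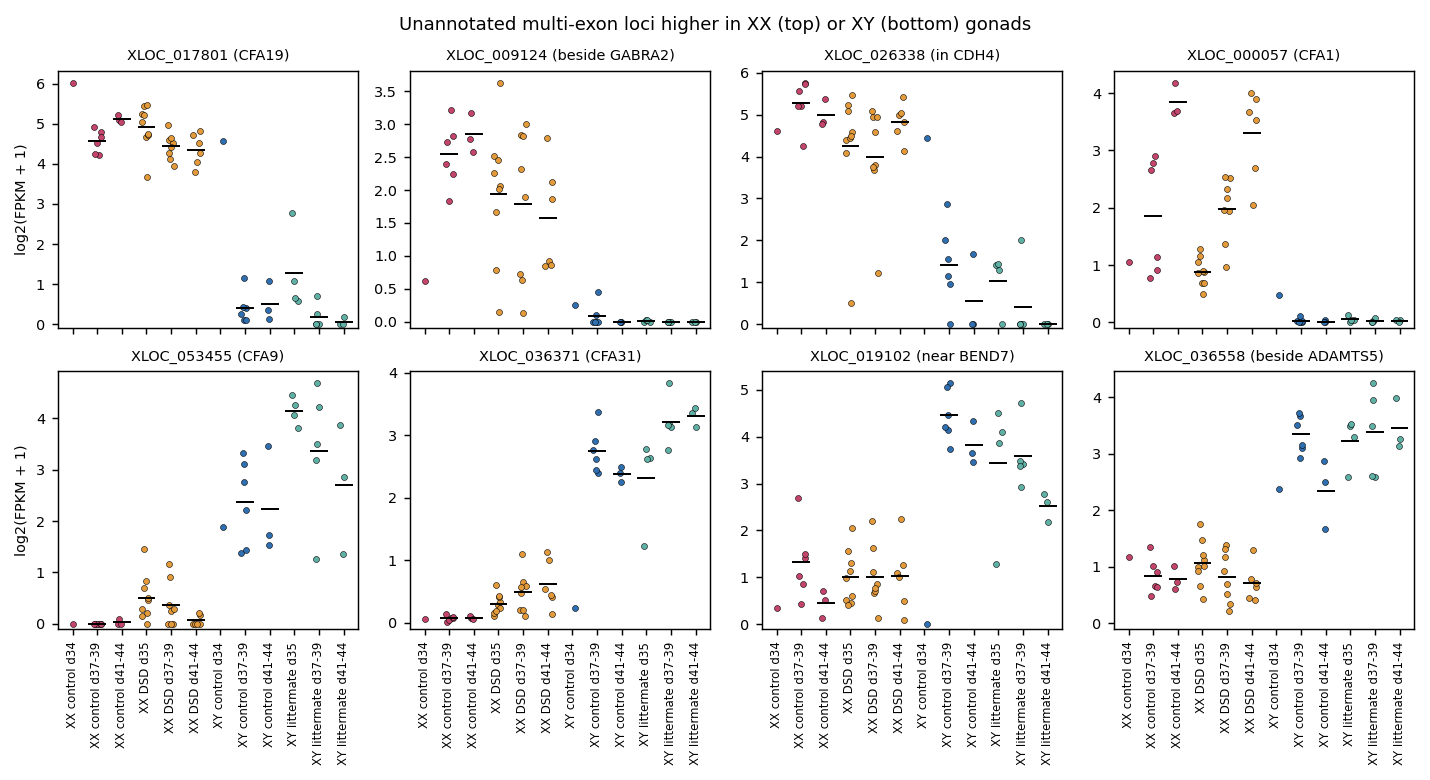
Levels of 8 members, log2(FPKM + 1), with 1 point per library in each of the 12 groups and a bar at the mean of the log values of groups of 3 or more. The upper 4 are higher in XX and the lower 4 higher in XY from d37-39 on. XLOC_017801 and XLOC_026338 are also present in the XY d34 pool (22.6 and 20.8 FPKM).

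Summed markers moved with these differences. The pre-granulosa and Sertoli sums are given above. The Leydig sum over 4 genes had medians of 4935 to 9860 FPKM in XY groups from d35 on and 462 to 1758 FPKM in XX groups, and the germ cell sum over 4 genes 24.0 to 29.6 against 9.40 to 11.9 FPKM. KIT, which somatic cells also express, carried the germ cell sum (means of 25.5 FPKM in XY and 8.27 in XX controls at d37-39). MAEL went the other way (1.73 and 3.83 FPKM), DDX4 had means of at most 0.360 FPKM in controls, and NANOG was at 0 in most groups. Their part in the members' differences was not tested.

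The next question was which members lie beside genes of gonad development. Of 69 listed genes 61 were found, and 23 had a member within 100 kb. These were 32 members, 23 of them with a group mean of 1 FPKM or more. Most were too low to be called. By limma, 0 of 17 tested were called in controls at d37-39, with 9 at an unadjusted p under 0.05, and 0 of 15 at d41-44, with 7. Over all members, 207 higher and 212 lower of 1011 tested were at an unadjusted p under 0.05 at d37-39. At d41-44 these were 184 and 152 of 934. In the DSD pedigree, 1 of 14 was called lower in XX DSD at d35, 0 of 12 at d37-39 and 1 of 14 at d41-44. At an unadjusted p under 0.05 were 9, 4 and 7 of these. Over all members at d37-39, 110 higher and 121 lower of 1285 tested were at an unadjusted p under 0.05. At d35 these were 168 and 111 of 805, and at d41-44 187 and 161 of 896. Between XX DSD and XX controls 0 of 13 were called at d37-39 and 0 of 14 at d41-44, with 1 and 8 at an unadjusted p under 0.05.

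XLOC_054092 starts 1263 bp upstream of SOX9, the main Sertoli cell regulator, and runs away from it on the opposite strand. It has 6 exons and 8 transcripts at chr9:8196975-8273786 (minus strand, 2154 nt). XY controls at d37-39 ranged from 1.65 to 2.63 FPKM with a median of 2.23, and XX controls from 0.110 to 0.395 FPKM with a median of 0.191. XX DSD embryos ranged from 0.0490 to 0.372 FPKM at d35 and from 0 to 1.32 FPKM at d37-39. XY littermates held 2.98, 2.94, 2.31 and 2.82 FPKM at d35 and 1.78, 2.60, 1.41, 2.66 and 2.81 FPKM at d37-39. Every XY embryo was above every XX embryo of the same pedigree and age. The XY d34 pool held 2.03 FPKM and the XX pool 0.335 FPKM.

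XLOC_054092 differed by -1.39 on the log2 scale in controls at d37-39 (SE 0.14, adjusted p = 1.2e-05), by -1.62 in the DSD pedigree at d35 (SE 0.16, adjusted p = 1.2e-05) and by -1.31 at d37-39 (SE 0.33, adjusted p = 0.022). It was not called because no mean reached 4 FPKM. The two-sided exact permutation p in controls was 0.0022, the smallest that 6 against 6 allows, among 40 such tests on 10 members. XX DSD and XX controls at d37-39 differed by 0.09 on the log2 scale (exact permutation p = 0.68). SOX9 itself was at 66.2 to 92.8 FPKM in XY controls, 1.90 to 4.06 in XX controls and 1.8 to 10.4 in XX DSD at d37-39.

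XLOC_019438 lies 40458 bp upstream of WNT4, an ovarian signal, on the opposite strand at chr2:76979482-77076321 (minus strand, 7 exons, 16 transcripts). The XX controls ranged at d37-39 from 1.43 to 3.89 FPKM and XY controls from 0.269 to 0.724 FPKM. XX DSD embryos held 1.90 to 3.72 FPKM, among and not below the XX controls. The sex difference was 1.12 on the log2 scale in controls (SE 0.20, adjusted p = 0.00097) and 1.49 in the DSD pedigree (SE 0.24, adjusted p = 0.0011), and XX DSD minus XX control was 0.17 (SE 0.18, adjusted p = 0.56). WNT4 was at 27.6 to 40.4 FPKM in XX controls, 13 to 28.0 in XX DSD and 4 to 8.87 in XY controls. In the XY d34 pool WNT4 was at 29.4 FPKM while the member was at 0.332 FPKM.

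XLOC_031542 lies 3053 bp downstream of EMX2, a gene needed for the early gonad, on its strand at chr28:28013029-28035737 (6 exons). Levels at d37-39 were 1.01 to 3.94 FPKM in XX controls, 0.344 to 1.19 in XY controls and 0.826 to 1.5 in XX DSD. The sex difference was 0.88 on the log2 scale (SE 0.22, adjusted p = 0.0092). XX DSD minus XX control was -0.48 (exact permutation p = 0.0093, limma adjusted p = 0.11). XLOC_017760, 2869 bp upstream of INHBB, an inhibin and activin subunit gene of Sertoli cells, was at 0.188 to 1.5 FPKM in XY controls and 0 to 0.130 in XX controls (exact permutation p = 0.0022). INHBB was at 118 to 218 FPKM in XY controls.

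**Figure D4:**
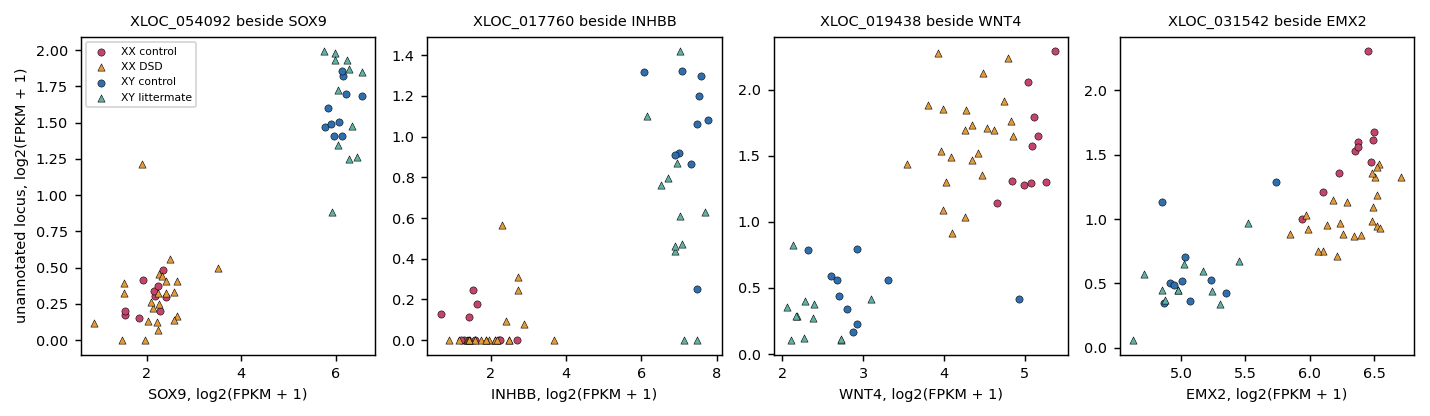
Each of 4 members (y axis) against the gene beside it (x axis), both as log2(FPKM + 1), 1 point per library, coloured by group. SOX9 and INHBB separate XY from XX libraries on the x axis, XLOC_017760 overlaps between them (2 XY littermates are listed at 0), 1 XX DSD embryo is at 1.32 FPKM of XLOC_054092, and XLOC_019438 with WNT4 and XLOC_031542 with EMX2 are higher in XX at d37-39.

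The exact tests, 40 in all over 10 members and 4 comparisons and not adjusted, also covered members beside LHX9, TCF3, OSR1 and NR2F2. XLOC_049711, 2410 bp from LHX9, a gene needed for the early gonad, was higher in XX than XY controls at d37-39 by 0.85 on the log2 scale (exact permutation p = 0.0022, limma adjusted p = 0.01), and in the DSD pedigree at d37-39 the difference was 0.22 (exact permutation p = 0.45). XLOC_021801, which overlaps the span of TCF3 on the opposite strand, differed by -0.64 in controls (exact permutation p = 0.0087) and by -0.06 in the DSD pedigree at d37-39 (exact permutation p = 0.83). At d35 XX DSD minus XY littermate was 0.64 at XLOC_014545 near OSR1 (exact permutation p = 0.0028) and 0.81 at XLOC_033408, which overlaps the span of NR2F2 on the opposite strand (exact permutation p = 0.0056).

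XLOC_042981, 51752 bp downstream of FST, an ovarian activin antagonist, was at 16.1 to 33.5 FPKM in XX DSD and 23.1 to 33.3 FPKM in XY controls at d37-39, and passed the test in none of the comparisons. RefSeq on a later assembly lists the protein-coding gene NDUFS4 between ARL15 and FST, where no locus of that name was found here. The member was not matched to NDUFS4 by sequence. XLOC_003534, downstream of LGR5, was at 8.66 FPKM in the XX d34 pool and 3.47 FPKM in the XY pool, and later group means were at or below 1.18 FPKM. XLOC_027822, 45979 bp upstream of GATA4, a gonadal transcription factor, was called lower in XX DSD than in XY littermates at d41-44. The 3 littermates held 5.54, 5.35 and 2.64 FPKM and the 6 XX DSD embryos 1.42 to 2.60 FPKM (difference -0.86, SE 0.21, adjusted p = 0.015). The member called at d35, XLOC_017758 near INHBB, is a 92 nt model listed at 0 in most libraries, and its groups overlapped.

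CFA9 from 5 to 9 Mb, around SOX9 and the insertion, held 12 members, of which 8 reached 1 FPKM in a group. XLOC_054081 (chr9:6161534-6169348, 5 exons, 12 transcripts) lies 11721 bp upstream of TTYH2 on its strand. Between TTYH2 and SDK2, RefSeq on a later assembly lists 4 genes without a locus of that name here, the protein-coding gene RPL38 among them. XLOC_054081 was not matched to any of them by sequence. It ranged from 12.8 to 21.4 FPKM in XX controls at d37-39, 4.33 to 18.3 in XX DSD and 13.5 to 21.3 in XY controls, and XY littermates held 4.78 to 14.9 FPKM. XX DSD minus XX control was -0.99 on the log2 scale (SE 0.28, adjusted p = 0.031, ratio 1.88 and so not called), and XY littermate minus XY control was -1.19 (SE 0.24, adjusted p = 0.043), with overlap in both. At d41-44 XX DSD minus XX control was 0.17 (SE 0.11, adjusted p = 0.24). The study, by its own test, reported no new transcript in this interval that differed between XX DSD and XX controls. XLOC_054084, beside SDK2, was higher in XX than XY controls at d41-44 (difference 1.34 on the log2 scale, SE 0.17, adjusted p = 0.0031).

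The last question was which members differ between XX DSD and XX control gonads. At d37-39, 998 members were tested, with 4 higher (0.401%) and 24 lower (2.40%) in XX DSD, beside 0.511% and 1.52% of all loci tested. At d41-44, 875 were tested, with 13 higher (1.49%) and 42 lower (4.8%), beside 1.13% and 5.02%. Rescaling each library by its median ratio over annotated loci moved the d41-44 calls to 23 higher and 24 lower, and the median difference of all loci from -0.09 to 0.03 on the log2 scale. XX DSD libraries at d41-44 had relative depths of 0.259 to 0.324 against 0.610 to 0.823 in XX controls. The summed pre-granulosa level was 87.9 to 124.0 FPKM in XX DSD and 215.7 to 226.6 FPKM in XX controls at d41-44, and 70.0 to 124.8 against 118.5 to 193.6 FPKM at d37-39. At d37-39 the annotated share of summed FPKM was 41.9% to 89.9% in XX DSD and 89.3% to 93.0% in XX controls. The part of depth, of this share and of these markers in the members' differences was not tested.

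XY littermates and XY controls also differ in pedigree, breed, insertion and litter, without XX DSD, and were compared beside them. These terms were not matched between the sexes. At d41-44 both copies of the insertion were in 6 of 6 XX DSD embryos, from 4 litters, and in 1 of 3 XY littermates, from 2 litters. At d37-39, 1212 members were tested, with 3 higher and 9 lower in littermates, beside 0.17% and 0.609% of all loci. At d41-44, 861 were tested, with 8 higher and 15 lower, beside 0.455% and 2.92%, and after rescaling 12 higher and 13 lower. The annotated share at d37-39 was 28.9% to 91.7% in XY littermates and 34% in A1099 and 88.4% to 91.1% in the other XY controls. Its part was not tested. Both totals rest on single libraries. The d37-39 total of 12 was 24 without C3516, 2 without C3626, C3627 or C3637, 4 without C3638 and 3 without A1099. The d41-44 total of 23 was 2 without C3518, A1106 or A1108, 4 without C3691 and 9 without C3522. Whether the XX and XY changes differed was tested as an interaction. At d37-39 it called 1 of 1464 members, beside 0.00514% of all loci, with 52 at an unadjusted p under 0.05. At d41-44 it called 0 of 1077, beside 0.0926%, with 121 at an unadjusted p under 0.05.

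XLOC_017569 was the member called in the interaction. It has 2 exons and 318 nt at chr19:21114411-21115902 (plus strand), 266538 bp from PLEKHB2. XX controls at d37-39 ranged from 5.79 to 24.7 FPKM with a median of 14.1, and XX DSD embryos were listed at 0 in 7 of 8, with 0.387 FPKM in the other. XY controls were listed at 0 in 4 of 6 and XY littermates in 5 of 5. At d41-44 XX controls held 13.5, 15.3 and 7.55 FPKM and XX DSD at most 3.57 FPKM. Only the XX controls were high. XX DSD minus XX control was -3.70 on the log2 scale (SE 0.26, adjusted p = 1.7e-06) and the interaction -3.39 (SE 0.38, adjusted p = 8.2e-05). With a pseudocount of 0.1 in place of 1 the interaction was not called.

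XLOC_005877 also separated XX DSD from XX controls. It has up to 3 exons and a longest spliced length of 778 nt at chr11:24091438-24092321 (minus strand), 7295 bp downstream of SMAD5 on the opposite strand. RefSeq on a later assembly lists SMIM32 between SMAD5 and TRPC7, where no locus of that name was found here. XX controls at d37-39 ranged from 4.77 to 22.8 FPKM with a median of 11.8, and XX DSD from 0.789 to 3.31 FPKM with a median of 1.31. XX DSD embryos at d35 were higher, at 4.49 to 15.1 FPKM, and XY controls at d37-39 held 0.380 FPKM on average. XX DSD minus XX control was -2.30 on the log2 scale at d37-39 (SE 0.32, adjusted p = 0.00047) and -1.55 at d41-44 (SE 0.29, adjusted p = 0.0019). The groups did not overlap at either age. The interaction was -1.85 and was not called (adjusted p = 0.44).

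Members higher in XX controls of one age mostly read lower in XX DSD of the other age. The embryos were other ones, but members were chosen as high in beagle XX controls and then read against beagle XX controls. A member high in that line alone would also read lower, so line and XX DSD cannot be told apart here. The share reading lower was not taken over all members or loci, and the values are without the rescaling given above. Of the 32 members higher in XX than XY controls at d37-39, 26 were lower in XX DSD than in XX controls at d41-44, with 7 called lower, 1 called higher and a median of -0.55 on the log2 scale (-0.11 over all members tested). Of the 41 chosen at d41-44, 33 were lower in XX DSD at d37-39, with 5 called lower, 1 called higher and a median of -0.38 (-0.08 over all members tested). Of the members lower in XX controls, 9 of 17 and 12 of 22 tested were higher in XX DSD, with medians of 0.05 and 0.02.

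A few members differed between the pedigrees in both sexes. XLOC_041124 was called higher in the DSD pedigree in both sexes at both ages. It has 6 exons and 3493 nt at chr37:107223-138899 (minus strand). At d37-39 XX DSD embryos ranged from 4.93 to 25.9 FPKM and XX controls from 0.290 to 1.47 FPKM, and XY littermates held 15.7, 28.9, 27.0, 24.4 and 30.3 FPKM against 0.483 to 1.21 FPKM in XY controls. Every embryo of the DSD pedigree was above every control of any age or sex. Differences were 2.97 in XX (SE 0.32, adjusted p = 0.0001) and 3.88 in XY (SE 0.19, adjusted p = 1.8e-06) on the log2 scale. XLOC_029311 was called lower in the DSD pedigree in all 4 of these comparisons, with means at d37-39 of 76.6 FPKM in XX DSD, 180 in XX controls, 74.6 in XY littermates and 228 in XY controls.

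XLOC_045399 was on or off in single embryos. It has up to 3 exons and a longest spliced length of 5931 nt at chr5:78391509-78397531 (minus strand), 52961 bp downstream of ZFHX3, a transcription factor gene, on its strand. Controls of both sexes held it, at 4.21 to 10.3 FPKM in XX and 2.72 to 10.03 FPKM in XY at d37-39. XX DSD embryos were listed at 0 in 9 of 9 at d35 and reached 0.0150 FPKM at most at d37-39. At d41-44, C3694 held 8.22 FPKM and the other 5 were listed at 0, and XY littermates C3518 and C3522 held 7.83 and 9.75 FPKM while C3691 was listed at 0. C3694 and C3691 were littermates. XX DSD minus XX control was -2.93 at d37-39 (SE 0.16, adjusted p = 1.4e-07) and -3.00 at d41-44 (SE 0.70, adjusted p = 0.0058) on the log2 scale. XY littermate minus XY control was -2.61 at d37-39 (SE 0.32, adjusted p = 0.008, and 0.069 without C3627, C3637 and C3638) and -1.21 at d41-44 (adjusted p = 0.41).

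**Figure D5:**
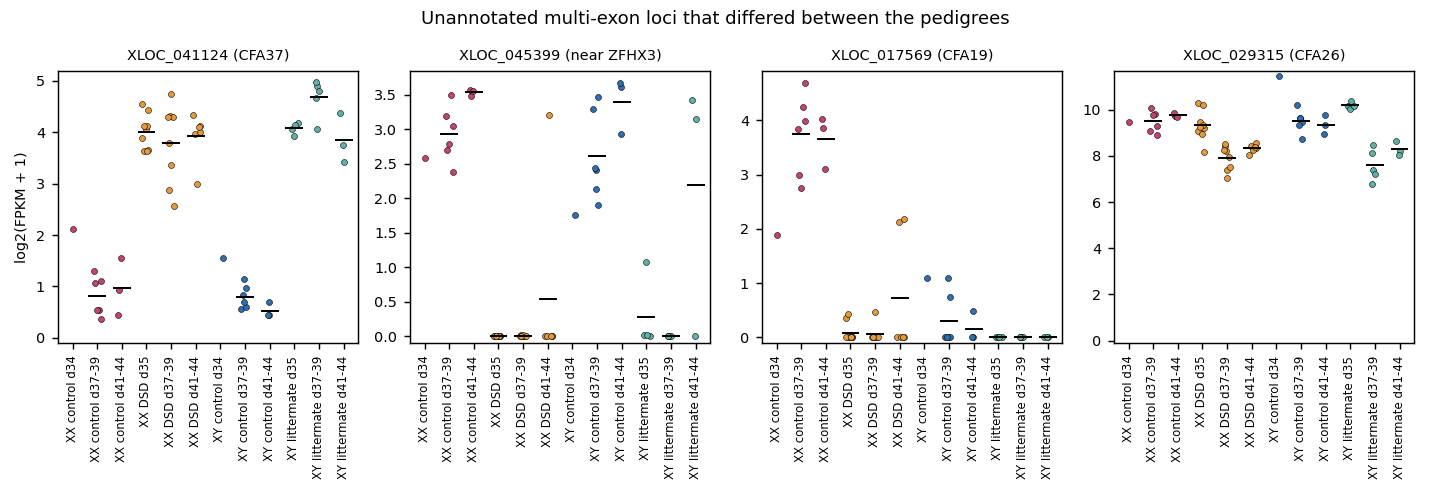
Levels of 4 members, log2(FPKM + 1), with 1 point per library in each of the 12 groups and a bar at the mean of the log values of groups of 3 or more. XLOC_041124 is high throughout the DSD pedigree, XLOC_045399 is high in controls and in 3 embryos of the DSD pedigree at d41-44, XLOC_017569 is high in XX controls, and XLOC_029315 was called lower in XX DSD than in XX controls at both ages and lower in XY littermates than in XY controls at d37-39. No control library is of d35.

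The members with the highest means were expressed everywhere. XLOC_037416, which has 2 exons and overlaps the span of ELOVL6, had group means of 1426 to 2755 FPKM. XLOC_003452, 216 bp upstream of ZC3H10, had 997 to 1995 FPKM, and RefSeq on the later assembly lists PA2G4, a growth regulator gene, between ERBB3 and ZC3H10. XLOC_021755, 161 bp from LONP1, had 935 to 4325 FPKM, and RPL36, a ribosomal protein gene, is listed between LONP1 and HSD11B1L. XLOC_052128 lies near RD3L where ATP5MJ, an ATP synthase subunit gene, is listed, and XLOC_006087 near TXNDC8 where TXN, the thioredoxin gene, is 1 of 8 listed. These are neighbours on another assembly and were not matched by sequence.

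XLOC_029315, another of the highest members, has 2 exons and 326 nt at chr26:28642549-28643017 (minus strand). RefSeq on the later assembly lists 13 genes between CABIN1 and SLC2A11 without a locus of that name here, MIF, DDT and GSTT2B among them. XLOC_029315 was not matched to any of them by sequence. XX controls at d37-39 ranged from 482 to 1078 FPKM and XX DSD from 130 to 367 FPKM, without overlap. At d41-44 XX controls held 842, 936 and 820 FPKM and XX DSD 266 to 379 FPKM. At d35 the XX DSD embryos held 291 to 1266 FPKM, overlapping the range of controls at later ages. XX DSD minus XX control was -1.59 at d37-39 (SE 0.25, adjusted p = 0.0012) and -1.42 at d41-44 (SE 0.10, adjusted p = 9.3e-06) on the log2 scale, and XY littermate minus XY control was -1.91 at d37-39 (SE 0.32, adjusted p = 0.034). The adjusted p of the XY difference was 0.086 without A1099 and 0.25 without C3627, C3637 and C3638.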

How the data were processed

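Gonads of dog embryos were sequenced as polyA+ TruSeq libraries (no strand kept). Per the labels, the authors trimmed reads with cutadapt 1.5 (the study's methods name a different version), aligned them to canFam3 with TopHat2 2.0.13, assembled transcripts guided by the Ensembl annotation with Cufflinks 2.2.1 and deposited normalized FPKM values per locus (Cuffnorm), with a merged transcript model file. FPKM keeps no counts, so depth was read only as relative steps between low values. The authors' table of annotated genes alone and their columns of fold changes and p-values were not used.

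Here, loci were classed from the transcript models, and log2(FPKM + 1) was tested with limma 3.58.1 (R 4.3.3, variance trend, embryos as replicates, Benjamini-Hochberg adjustment over all loci with a group mean of 1 FPKM or more). A call needed an adjusted p under 0.05, a ratio of means of 2 and a mean of 4 FPKM. An interaction call needed an adjusted p under 0.05 and a size of 1 on the log2 scale. Exact permutation tests were two-sided. Named members were those with the largest ratio among called members without overlap, the 6 with the highest mean, those of CFA9 from 5 to 9 Mb and those within 100 kb of a listed gonad gene. XLOC_008042, XLOC_010527, XLOC_029014, XLOC_035446, XLOC_042825, XLOC_047303, XLOC_057046, XLOC_057161 and XLOC_029311, called in all comparisons of sex or of pedigree, were chosen after their values were seen. Members and lists were chosen with earlier results of these data known. Pseudocount, filter, scaling, trend, litter block, member definition, age and left-out libraries were varied. The model was tested on simulated data. Python 3.11.15, pandas 2.3.3 and SciPy 1.17.1 were used. No sequence is printed, since no genome of this build was used here.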

Additional observations from a re-analysis of the deposited data

Results flagged for a closer look

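Groups of 4 to 10 libraries were read at the named members and at counts of members per library. Of 355 such groups, 32 held 1 library far from the rest of its group. Normally spread values give about 1 in 20, which FPKM values with many zeros need not follow. XX DSD embryo C3575 at d35 was the odd library at XLOC_017801 (11.83 FPKM), XLOC_026338 (0.417), XLOC_037260 (0.940), XLOC_054081 (35.1), XLOC_033408 (4.73) and XLOC_009251 (2.70). C3511 stood apart at XLOC_029280 (5.53 FPKM) in the same group.

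XY littermate C3574 at d35 stood apart at XLOC_038124 (14.7 FPKM), XLOC_036371 (1.33) and XLOC_052070 (18.9), C3617 at XLOC_030075 (5.62) and C3618 at XLOC_026338, where it was listed at 0 (0.0).

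At d37-39, XY control A1099 had the most members at 1 FPKM or more (1111) and at 4 FPKM or more (388), and was high at XLOC_032458 (10.4 FPKM), XLOC_054084 (3.41) and XLOC_033408 (18). Other controls that stood apart were A1086 at XLOC_026338 (18 FPKM), A1098 at XLOC_032458 (8.42) and A1095 at XLOC_056932 (1.5) and XLOC_017758 (31.8). XX DSD embryos C3636 at XLOC_026338 (1.34 FPKM) and C3633 at XLOC_005572 (0.05) were low. Among XY littermates, C3627 held 147.6 FPKM at XLOC_017758 and C3637 94.6 at XLOC_054082, C3638 held 5.99 at XLOC_042796 and 4.76 at XLOC_054071, C3626 held 5.76 at XLOC_032458 and C3516 held 9.49 at XLOC_029280.

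At d41-44, XX DSD embryo C3694 was low at XLOC_041124 (7.00 FPKM) and the single one with XLOC_045399 (8.22 FPKM), and C3517 held 9.16 FPKM at XLOC_021606.

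The change between pedigrees at d37-39 differed between the sexes at XLOC_017569, by -3.39 on the log2 scale (limma interaction, adjusted p = 8.2e-05), which was not called with a pseudocount of 0.1.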

How the results depend on the processing

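Over 76 differences of named members and their comparisons, 1054 values were recomputed: 957 kept their direction and side of the threshold, 97 kept the direction but no longer passed, and none reversed. A mean of 1 FPKM in place of 4 for a call gave 213 and 162 members for sex in controls at d37-39 and d41-44, 117, 76 and 170 for sex in the DSD pedigree at d35, d37-39 and d41-44, and 69 and 121 for XX DSD against XX control. Keeping the 1339 members at least 5 kb from annotated exons gave 35 and 41 for sex in controls, 37 for XX DSD against XY littermate at d41-44, 17 and 26 for XX DSD against XX control, and 4 and 15 for XY littermate against XY control. Keeping members whose every transcript was spliced gave 27 for XX DSD against XY littermate at d37-39.

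XY littermate against XY control depended most on the settings. At d37-39 the 12 became 19 with a pseudocount of 0.1, 2 without the filter, 2 without the variance trend, 2 with litter as a block and 4 with d39 embryos alone. It became 3 without A1099 and 1 without C3627, C3637 and C3638. At d41-44 the 23 became 2 without the filter, 2 without the trend, 42 with litter as a block and 4 without the d41 embryos. The interaction call at d37-39 became 0 with a pseudocount of 0.1, 2 with d39 embryos alone and 2 without C3627, C3637 and C3638. At d41-44 the 0 became 1 with a pseudocount of 0.1, 4 without the filter, 5 without the trend and 4 without the d41 embryos. The causes were not tested.

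Leaving out 1 library at a time gave 57 to 70 members for sex in controls at d41-44, 34 to 46, 41 to 47 and 58 to 61 for sex in the DSD pedigree at d35, d37-39 and d41-44, and 48 to 52 for XX DSD against XX control at d41-44. It gave 2 to 24 and 2 to 28 for XY littermate against XY control, and 1 to 1 and 0 to 4 for the interaction. Leaving out the libraries that stood apart, and limiting members by spliced length or span, were chosen after seeing the data. Among the 2116 members of 200 nt or more, the calls for sex were 58 and 67 in controls and 41, 44 and 59 in the DSD pedigree. The study's material gives the d41 embryos a different age from the labels, so they were left out as a setting. FPKM values carry no counts, so no counting interval could be given, and members near 1 FPKM in shallow libraries rest on few fragments.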

Other observations

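Some members that were clearly expressed in the d34 pools were low in later XY groups. XLOC_003534 downstream of LGR5, a stem cell receptor gene, is described above. XLOC_005877 was at 15.3 FPKM in the XY d34 pool and 5.10 FPKM in the XX pool, and XLOC_038124 at 14.8 and 21.1 FPKM. At d37-39 XY controls held means of 0.380 and 0.383 FPKM at these last members. Each pool is 1 library, so no difference was tested. The XY pool was the shallowest library, at a relative depth of 0.139. Both pools held more nerve and erythroid marker RNA than the later group medians, and the part of this tissue content was not tested.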
